A study of Mus musculus with 40 samples.

Results

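The genes described here are 8 regulators of mitochondrial content and fatty acid oxidation in mouse adipocytes, chosen by name: the PGC-1 coactivators Ppargc1a, Ppargc1b and Pprc1, the nuclear receptors Esrra, Esrrg and Ppara, and the mitochondrial transcription regulators Nrf1 and Tfam. They are 8 of the 21951 protein-coding genes in the GENCODE annotation of the mouse genome build mm10, and all of them were among the 15204 genes tested, which held a peak of the histone mark H3K27ac in at least 3 libraries. Each gene was taken with 5 kb upstream of its start, and the length of that span lying under peaks, in kb, was read in every library together with the height and the rank of the peaks.

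The mark was profiled by chromatin immunoprecipitation and sequencing in inguinal white preadipocytes of wild-type animals (WT) and of animals without HMGN1 and HMGN2 (DKO), nucleosome-binding proteins that modulate chromatin compaction. Both genotypes were of the C57BL/6 strain. The cells were collected before induction (day 0) and on days 3, 6 and 9 of a conversion to brown-like adipocytes. The induction medium held insulin, dexamethasone, IBMX, T3 and rosiglitazone and was given for 4 days. A maintenance medium of insulin and T3 followed. Day 3 therefore fell under the induction medium and days 6 and 9 came after the change, with the same media described for both genotypes. Each genotype had 3 libraries at each of the 4 days, which makes 24 lists of peaks. The knockout is carried by every cell of the DKO mice and not by adipocytes alone. The study names the libraries of a group biological replicates without saying whether they came from separate mice or cultures, so that the p-values measure only the spread between these libraries.

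H3K27ac lies at active promoters and enhancers. The PGC-1 proteins do not bind DNA themselves but are recruited by nuclear receptors such as the estrogen-related receptors (ERRs) and PPARα and by NRF1, and together they switch on genes of the respiratory chain, of fatty acid oxidation and of mitochondrial DNA maintenance. PGC-1α, the product of Ppargc1a, is known as a cold-induced driver of the brown fat program.

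The lists held 47448 to 115923 peaks and covered 20.7 to 96.4 Mb of the genome per library. The total number of reads is unknown, but the fold and the p-value of a peak together gave the local background, which lay between 8.62 and 12.9 reads per kb in all libraries except WT day 3 replicate 3, where it was 4.52. DKO day 0 replicate 2 had a narrowest peak of 440 bp and covered 96.4 Mb, the highest of all libraries, and values of the members that change a call, a direction or their size without it are given both ways. The other DKO libraries of day 0 covered 47.7 and 58.0 Mb, against 46.1 to 54.6 Mb in WT. At day 0 the mean covered length was 50.6 Mb for WT and 67.3 Mb for DKO. The WT and DKO means were 44.6 and 34.9 Mb at day 3, 57.5 and 30.8 Mb at day 6, and 55.4 and 64.5 Mb at day 9. DKO libraries thus covered 0.536 times the WT length at day 6 (55.5 to 60.4 Mb in WT against 20.7 to 36.3 Mb in DKO), although background reads were alike in both genotypes at that day (9.81 to 11.2 reads per kb in WT, 9.83 to 11.4 in DKO). These ratios correspond to log2 shifts of 0.41, -0.35, -0.90 and 0.22 at days 0, 3, 6 and 9, and members are therefore given below also after scaling each library to the median covered length of the 24. The Hmgn2 span held a peak in 3 of 3 WT and in 0 of 3 DKO libraries at every day, and that of Hmgn1 held peaks in all groups, which says nothing about its deletion. Of the 8 adipocyte markers, the promoters of Adipoq and Cidec were marked in all 12 libraries of days 6 and 9 and in none earlier. That of Plin1 was marked in those 12 and in 3 WT and 2 DKO libraries of day 3. Those of Fabp4, Lpl, Cebpa, Pparg and Lipe were marked in all 24 libraries, also at day 0. Of the 8 stromal markers Pdgfra, Pdgfrb, Thy1 and Ly6a were marked in all 24, Dpp4 in 13, Cd34 in 12, Pi16 in 8 and Dlk1 in 0. Of the 7 markers of brown or beige adipocytes, Cox7a1 was marked in 24 libraries, Prdm16 in 22, Dio2 in 19, Elovl3 in 7 and Cox8b in 3. Cidea was marked in the 3 DKO libraries of day 9 alone, and Ucp1, the defining gene of thermogenic adipocytes, in 0 libraries. Some markers of other cells were marked in fewer libraries late in the course, and others were not. The endothelial genes Pecam1 and Cdh5 were marked in 6 of 6 libraries of day 0 and in 1 and 0 of 6 at day 9. The blood cell gene Ptprc was marked in 6 and 1. Of the other endothelial markers, Tek was marked in 3 of 3 libraries of each genotype at both days. Kdr was marked in 2 WT and 3 DKO libraries at day 0, in 0 at days 3 and 6, and in 1 WT and 3 DKO libraries at day 9. Of the other blood cell markers, Cd68 was marked in 24 libraries, Adgre1 in 20 and Cd3e in 0. The 4 endothelial markers together covered 6.62 to 16.1 kb at day 0 and 2.69 to 5.72 kb at day 9, and the 4 blood cell markers 8.22 to 23.7 and 2.65 to 4.73 kb. Their part in the course described below was not tested. In these bulk samples, more cells carrying a mark and more of the mark per cell cannot be told apart.

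The members differed widely in how much of their span was marked. On average over the 24 libraries, peaks covered 23.8% of the span of Esrra and 21.5% of that of Pprc1, against a median of 5.40% over all genes tested (10th to 90th percentile 0.571 to 22.9%). The spans of Ppargc1b (7.21%), Tfam (5.54%), Nrf1 (2.78%) and Ppara (2.14%) lay between, and those of Ppargc1a (1.25%) and Esrrg (0.120%) were the least covered. The spans of Pprc1, which holds part of Ldb1, and of Esrra, which holds Trmt112, Catsperz and Kcnk4 or parts of them, include peaks that cannot be assigned to the member alone. Peaks of all libraries that overlapped were joined into 101 merged regions within the 8 spans, of which 9 were called in all 24 libraries, 49 in only 1 or 2 libraries, and 17 lay at an annotated start.

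The question was first how the mark at these genes moved during differentiation. Ppargc1a, Ppargc1b, Esrrg and Ppara gained covered length from day 0 to day 9, while Pprc1, Esrra, Nrf1 and Tfam, which were marked from the start, did not pass the test in either direction. The gain was 1.24 kb at Ppargc1a, 9.58 kb at Ppargc1b, 1.85 kb at Esrrg and 2.29 kb at Ppara, as the mean of both genotypes (exact permutation test of the day within genotype, two-sided, p = 0.005, the smallest p possible, adjusted p = 0.0203 over all genes tested). Thus 4 of 8 members were higher at day 9, where 16.4% of all genes were, and 0 of 8 were lower, where 14.8% of all genes were. The median change was 0.659 kb over the members and 0.0386 kb over all genes. All 4 calls held without DKO day 0 replicate 2 (adjusted p = 0.0156, exact permutation test) and after scaling (adjusted p = 0.0148), whereas that of Ppargc1a was lost among the 20000 strongest peaks of each library (1.21 kb, adjusted p = 0.108), where Esrrg had too few peaks to be tested, and with fixed windows around summits (0.615 kb, adjusted p = 0.0961).

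**Figure D1:**
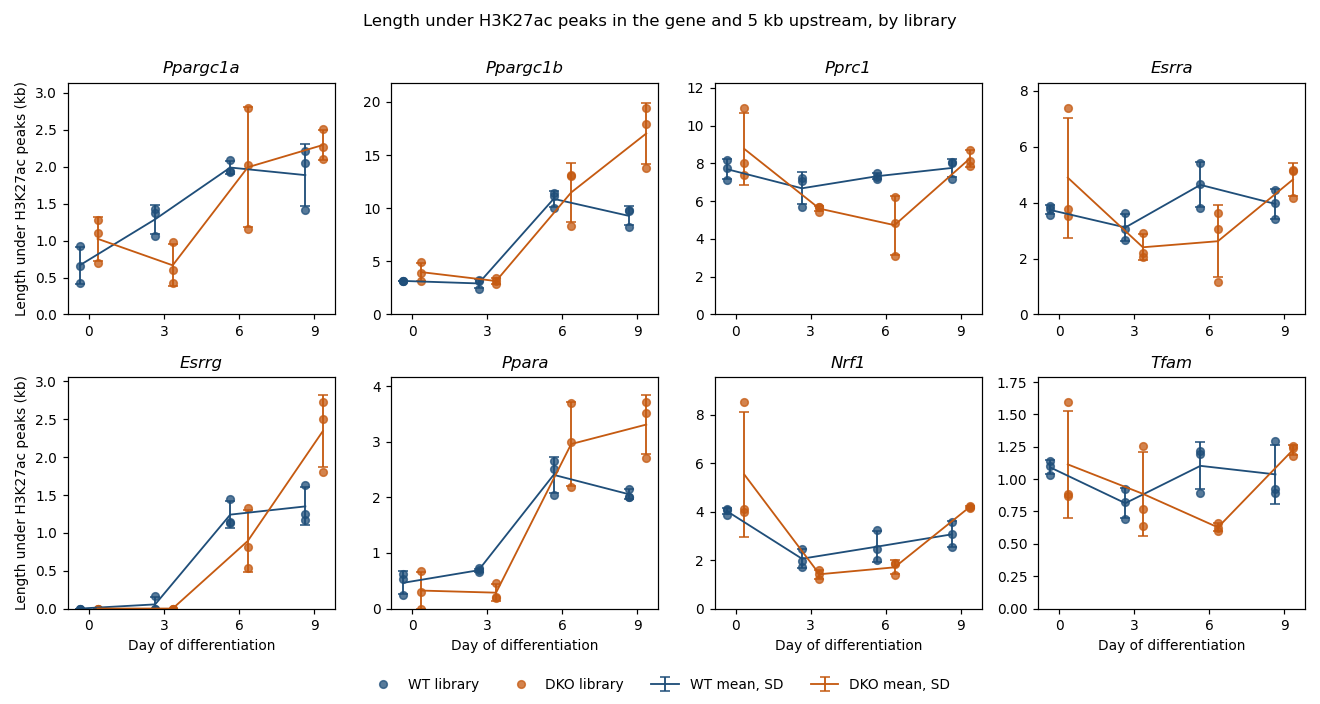
Length under H3K27ac peaks (kb, vertical axis, a separate scale for each gene) in the gene and 5 kb upstream against the day of differentiation. Points are libraries, lines join the means of 3 libraries and bars are SD, WT in blue and DKO in orange; Ppargc1a, Ppargc1b, Esrrg and Ppara rise from day 3 to day 6, and at day 9 the DKO libraries of Ppargc1b lie between 13.8 and 19.4 kb against 8.26 to 9.82 kb in WT.

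Ppargc1a (chr5:51454250-51567726, minus strand) was marked at its internal, proximal starts and not at its most upstream start. At day 0 its covered length was 0.661, 0.923 and 0.423 kb in the WT libraries and 0.695, 1.27 and 1.11 kb in DKO. At day 3 the WT libraries held 1.38, 1.43 and 1.06 kb and the DKO libraries 0.423, 0.597 and 0.978 kb. Every DKO library was below every WT library at that day, and WT had by then risen above day 0. At day 6 the values were 1.95, 2.09 and 1.93 kb in WT and 2.79, 2.03 and 1.16 kb in DKO. At day 9 they were 1.41, 2.21 and 2.05 kb in WT and 2.51, 2.11 and 2.27 kb in DKO. The genotypes overlapped at days 6 and 9, and in both genotypes all libraries of day 9 were above all libraries of day 0, by 2.82 times the mean in WT and 2.24 times in DKO.

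Nearly all of this length lay in 1 merged region (chr5:51551249-51553622, intronic and start-overlapping), which was called in all 24 libraries, with its summit 14.8 kb downstream of the most upstream start and 1.0 kb from the nearest internal one. Fold enrichment at its summit over the local background averaged 6.99 ± 1.25 (SD, n = 3) in WT and 7.36 ± 1.96 in DKO at day 0, and 9.85 ± 2.71 in WT and 12.2 ± 3.57 in DKO at day 9. These folds rested on 13 to 62 reads at the summit. A further region next to it (chr5:51553691-51554217), over the internal start itself, was called in no library of days 0 and 3, in 1 WT and 1 DKO library at day 6, and in 2 WT and 3 DKO libraries at day 9. The 250 bases before that internal start are shown because this region turned up late in differentiation and holds the element through which cAMP is known to act on the gene. They are from the RefSeq sequence of GRCm38 (mm10), chr5:51553923-51554172, minus strand, and capitals mark the cAMP response element TGACGTCA, a palindrome found in 1.55% of the 32817 promoters of the same length.

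Ppargc1a internal start: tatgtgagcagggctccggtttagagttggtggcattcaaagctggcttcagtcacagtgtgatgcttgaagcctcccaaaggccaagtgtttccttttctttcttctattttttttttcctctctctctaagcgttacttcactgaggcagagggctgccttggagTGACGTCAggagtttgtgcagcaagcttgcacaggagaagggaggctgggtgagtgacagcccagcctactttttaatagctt

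Ppargc1b (chr18:61298136-61400431, minus strand) encodes PGC-1β, the coactivator tied to constitutive mitochondrial biogenesis, and its locus carries the microRNA gene Mir378a in an early intron. It had the largest gain of the 8 members in kb, and it differed most between the genotypes at day 9. Its covered length was 3.13, 3.18 and 3.16 kb in WT and 3.17, 4.92 and 3.88 kb in DKO at day 0, where the libraries overlapped. At day 3 the WT libraries held 3.14, 3.24 and 2.39 kb and the DKO libraries 2.89, 3.11 and 3.45 kb. Both genotypes overlapped there and stood within the range of day 0 or just under it. At day 6 all libraries were higher, with 11.1, 11.5 and 10 kb in WT and 13.0, 13.1 and 8.29 kb in DKO. At day 9 the WT libraries held 8.26, 9.76 and 9.82 kb, all below their day 6 values, and the DKO libraries held 19.4, 17.9 and 13.8 kb, all above theirs. The DKO mean was 1.83 times the WT mean at day 9 (17 against 9.28 kb, exact permutation p = 0.1, which is the lowest value possible with 3 libraries a group).

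The region at the start of Ppargc1b (chr18:61393081-61401578, which includes Mir378a at 2.53 kb from the start) was called in all 24 libraries. At day 0 it covered 3.09 ± 0.096 kb in the WT and 3.86 ± 0.937 kb in the DKO libraries, at day 6 it covered 6.86 ± 0.341 and 6.71 ± 0.670 kb, and at day 9 it covered 5.67 ± 0.407 and 7.74 ± 0.121 kb (SD, n = 3). In both genotypes it widened by day 6, and at day 9 it was wider in each DKO library (7.61 to 7.82 kb) than in any WT library (5.22 to 6.00 kb). Beyond the start, 41 further regions were seen across the gene. Of these, 4 with summits 16.9, 17.8, 40.3 and 42.0 kb from the start were called in 12 of 12 libraries of days 6 and 9 and in 0 of 12 of days 0 and 3. The number of regions called per library was 1 to 2 in every library of days 0 and 3, 11 to 12 in WT and 7 to 13 in DKO at day 6, and 8 to 11 in WT and 15 to 25 in DKO at day 9. The length outside the start region followed the same order, with 3.05 to 4.01 kb in the WT libraries of day 9 and 6.02 to 11.6 kb in the DKO libraries.

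**Figure D2:**
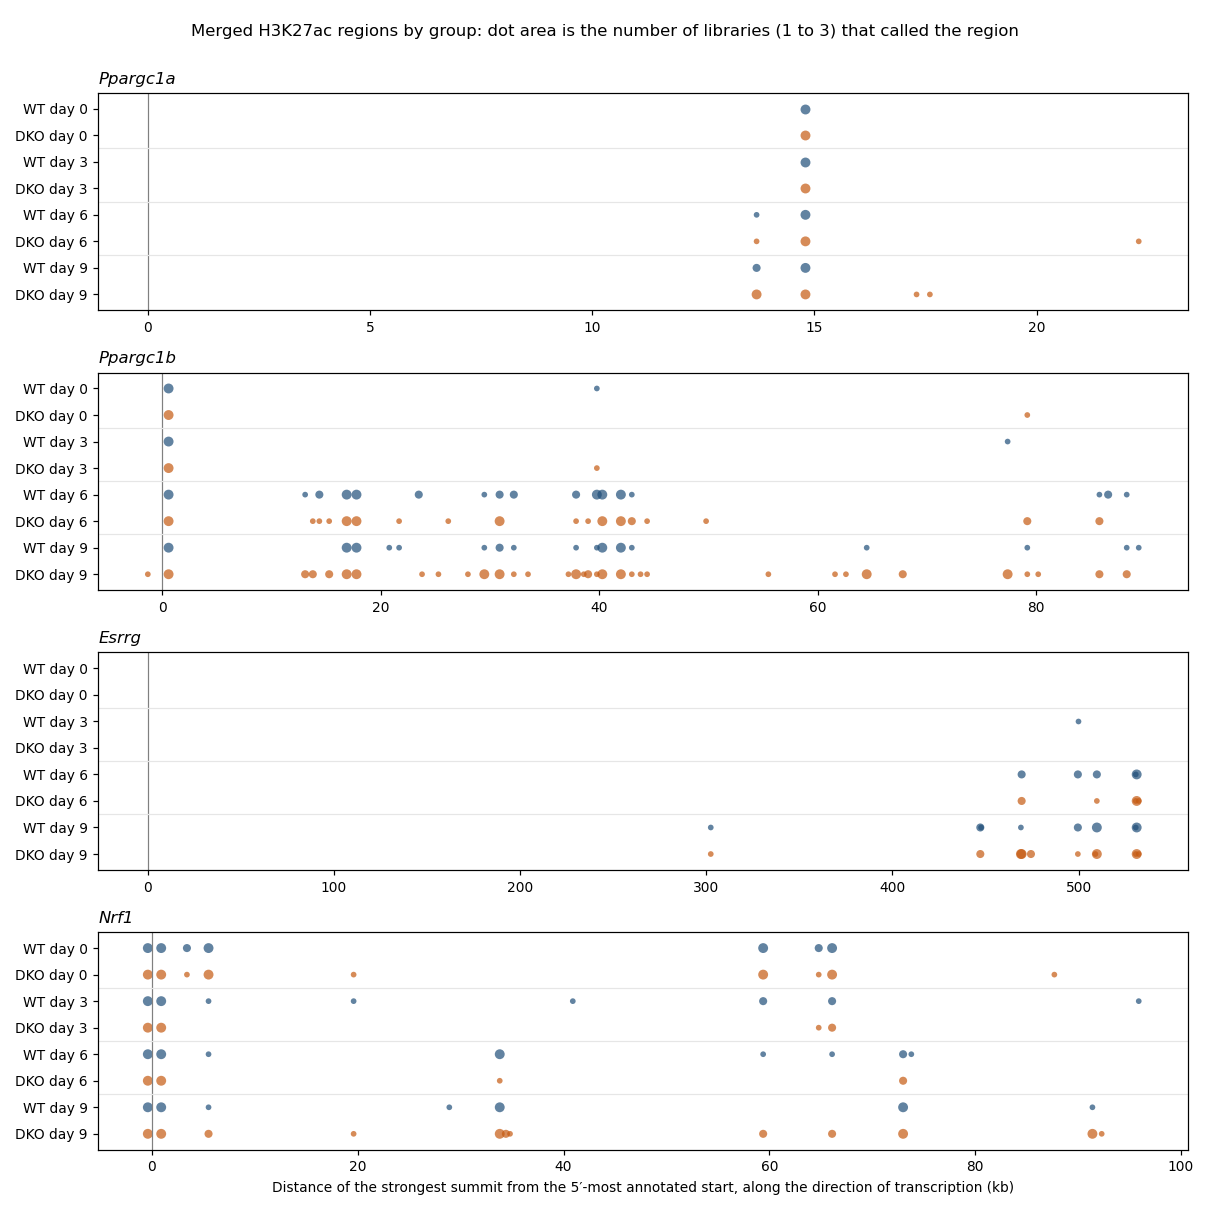
Merged H3K27ac regions at 4 members, placed by the distance of their strongest summit from the most upstream annotated start (kb, along the direction of transcription); rows are the 8 groups, WT in blue and DKO in orange, and the area of a dot gives the number of libraries, 1 to 3, that called the region. Ppargc1b shows 1 position held by all libraries at days 0 and 3 and many across the gene at days 6 and 9, Esrrg has regions only at 302 kb or more, and Nrf1 has regions near 5.5, 59.4 and 66.1 kb at day 0 and near 33.8 and 73.0 kb at day 9.

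Pprc1 (chr19:46044886-46072915, plus strand) encodes the PGC-1-related coactivator, which is induced by growth signals. It was broadly marked at all days, at a region that reaches from Ldb1 over its start and at a second region over internal starts (chr19:46055432-46058919), both called in all 24 libraries. Its covered length was 7.13, 7.78 and 8.18 kb in WT and 7.37, 10.9 and 8.01 kb in DKO at day 0, and 7.19, 8.05 and 8.05 kb in WT and 8.74, 8.14 and 7.87 kb in DKO at day 9. The genotypes overlapped at both ends of the course. They did not overlap at day 3 (5.72 to 7.25 kb in WT, 5.45 to 5.69 kb in DKO) or at day 6 (7.16 to 7.51 kb in WT, 3.10 to 6.23 kb in DKO), where DKO was below WT.

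Esrra (chr19:6910977-6921813, minus strand) encodes ERRα, the receptor through which PGC-1α acts on many respiratory chain genes. Its start region (chr19:6919595-6921741) was called in all 24 libraries and a region just upstream (chr19:6922004-6923414) in 23. Its covered length was 3.56, 3.88 and 3.77 kb in WT and 3.52, 7.37 and 3.79 kb in DKO at day 0, and 3.40, 4.46 and 3.99 kb in WT and 5.14, 5.18 and 4.16 kb in DKO at day 9. The DKO value of 7.37 kb is that of the library with wide peaks. At day 6 the libraries did not overlap, and the DKO range (1.16 to 3.63 kb) lay below the WT range (3.81 to 5.42 kb). Within 1 kb of a start the genotypes did overlap there (WT 1.824 to 2.107 kb, DKO 1.159 to 2.098 kb). The separation lay in the rest of the span (WT 1.986 to 3.33 kb, DKO 0 to 1.533 kb). That rest includes part of a region called in all 24 libraries (chr19:6907007-6914912), whose strongest summit lies in Trmt112. An intronic region (chr19:6916311-6917039) was held at day 6 by 3 of 3 WT libraries and 0 of 3 DKO libraries, by 3 and 2 at day 9, by 2 and 0 at day 0 and by none at day 3 (exact conditional test over the 4 days, p = 0.01, adjusted p = 0.579 over the 71175 regions tested). At the upstream region, fold enrichment was 9.38 ± 1.32 in WT and 16.6 ± 3.58 in DKO at day 9 (SD, n = 3), with 25 to 36 and 48 to 64 reads at the summit.

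The upstream sequences of Esrra are shown because they hold letters of the motifs of NRF1 and the ERRs. The first is the promoter (chr19:6921814-6922058, minus strand, RefSeq, GRCm38), in which capitals mark the core of the NRF1 element, GCATGCGC, searched on both strands and found in 2.25% of promoters. This core lies in the gap between the start region and the upstream region, under neither. The second is the window around the strongest summit of the upstream region (chr19:6922173-6922370, minus strand). Its capitals mark, read on the opposite strand, a nuclear receptor core AGGTCA and the full ERR element TCAAGGTCA, which contains another such core. The full ERR element was found in 0.387% of promoters and in 0.527% of 91914 windows of 201 bases around the strongest summits of all merged regions called in at least 3 libraries.

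Esrra promoter: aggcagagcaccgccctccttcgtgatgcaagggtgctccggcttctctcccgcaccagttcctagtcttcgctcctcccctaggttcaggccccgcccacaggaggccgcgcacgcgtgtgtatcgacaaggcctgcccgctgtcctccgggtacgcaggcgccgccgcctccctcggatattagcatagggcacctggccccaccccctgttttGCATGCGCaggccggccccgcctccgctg
Esrra upstream summit: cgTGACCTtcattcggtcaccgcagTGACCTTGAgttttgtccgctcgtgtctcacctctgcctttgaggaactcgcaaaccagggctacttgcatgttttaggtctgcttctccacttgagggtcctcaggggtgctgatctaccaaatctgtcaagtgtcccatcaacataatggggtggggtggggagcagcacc

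Esrrg (chr1:187608791-188214885, plus strand), which encodes ERRγ, a receptor abundant in oxidative tissues such as brown fat, heart and slow muscle, was unmarked in preadipocytes. No peak lay within 1 kb of any of its 5 annotated starts in any of the 24 libraries. Its span held 0 kb in all 6 libraries of day 0 and in all DKO libraries of day 3, and in WT 0.165 kb in 1 library of day 3 and 0 kb in the other two. At day 6 the WT libraries held 1.45, 1.13 and 1.15 kb and the DKO libraries 1.33, 0.813 and 0.534 kb. The genotypes overlapped there. At day 9 the WT libraries held 1.17, 1.24 and 1.64 kb, and the DKO libraries held 2.51, 1.81 and 2.72 kb, all of them above WT (1.74 times the WT mean, exact permutation p = 0.1, the smallest possible).

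The length at Esrrg came from 12 small intronic regions 302 kb or more downstream of the first start. The most frequent (chr1:188139782-188140717) had its summit 531.2 kb from that start and was called in 12 of 12 libraries of days 6 and 9 and in 0 of 12 before. Its fold was 6.67 ± 1.59 in WT and 7.07 ± 0.107 in DKO at day 9 (SD, n = 3). The 201 bases around this summit (chr1:188139931-188140131, plus strand) are shown because no other region of the gene was called as often, although it covered only 0.356 ± 0.0816 kb in the WT and 0.739 ± 0.190 kb in the DKO libraries of day 9 (SD, n = 3). None of the motifs searched is found in them and 74.1% of the bases are C or T.

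Esrrg intronic summit: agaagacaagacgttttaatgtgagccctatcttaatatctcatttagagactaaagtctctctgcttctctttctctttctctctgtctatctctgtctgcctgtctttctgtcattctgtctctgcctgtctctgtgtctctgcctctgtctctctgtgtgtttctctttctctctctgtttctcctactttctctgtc

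Ppara (chr15:85734983-85802819, plus strand) encodes PPARα, the receptor that switches on fatty acid oxidation genes. Its gain lay mostly at its starts, where a region over the first start (chr15:85734092-85735316) was called in 17 libraries and a second (chr15:85735529-85737968) in 23. Farther than 1 kb from a start it held 0 kb at day 0. At day 9 that part was 0.116 ± 0.102 kb in WT and 0.705 ± 0.506 kb in DKO (SD, n = 3). Its covered length was 0.235, 0.625 and 0.530 kb in WT and 0.675, 0 and 0.295 kb in DKO at day 0. At day 3 it was 0.686, 0.721 and 0.660 kb in WT and 0.193, 0.207 and 0.456 kb in DKO. Every DKO library was below every WT library at day 3. At day 6 the WT libraries held 2.52, 2.04 and 2.66 kb and the DKO libraries 2.99, 3.70 and 2.18 kb. At day 9 the WT libraries held 2.01, 2.0 and 2.16 kb and the DKO libraries 3.52, 3.71 and 2.70 kb. The libraries overlapped at day 6 and were fully apart at day 9, DKO above WT by 1.61 times (exact permutation p = 0.1, the smallest possible). With fixed windows around summits the difference of 1.25 kb at day 9 turned to -0.167 kb. Part of this lay in the second region, which at day 9 covered 1.07 ± 0.177 kb of the WT and 1.96 ± 0.322 kb of the DKO span (SD, n = 3), while its fold was 14.6 ± 2.05 and 16.6 ± 0.781.

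Nrf1 (chr6:30047988-30153458, plus strand) encodes a transcription factor of nuclear-encoded respiratory genes and of Tfam. The 2 regions at its first start were called in all 24 libraries, and its changes lay inside the gene. Its covered length was 3.88, 4.09 and 4.11 kb in WT and 3.99, 8.52 and 4.10 kb in DKO at day 0, and it fell to 2.48, 1.98 and 1.72 kb in WT and 1.43, 1.61 and 1.22 kb in DKO at day 3. At day 9 it was 2.53, 3.59 and 3.09 kb in WT and 4.22, 4.17 and 4.19 kb in DKO. DKO was below WT in every library at days 3 and 6 and above it in every library at day 9. From day 0 to day 9 the change was -1.15 kb (exact permutation test, p = 0.060, adjusted p = 0.140), with WT below day 0 in every library and DKO overlapping it. Without DKO day 0 replicate 2, which held the 8.52 kb, the change was -0.404 kb (adjusted p = 0.203, exact permutation test), and among the 20000 strongest peaks it turned to 0.143 kb (adjusted p = 0.803). It passed the threshold as a fall after scaling to covered length (-1.05 kb, adjusted p = 0.0148, exact permutation test) and with the gene body alone (-1.34 kb, adjusted p = 0.0350).

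Regions inside Nrf1 came and went over the course. Regions with summits 5.5, 59.4 and 66.1 kb from the start were called in 6 of 6 libraries at day 0 and in 3, 2 and 2 of 6 at day 9, the last of which overlaps an annotated start and an exon while the other two are intronic. Regions 33.8 and 73.0 kb from the start were called in 0 of 12 libraries of days 0 and 3 and in 6 of 6 at day 9. The summit windows of 1 region of each kind are shown (201 bases, plus strand, GRCm38). In the day 0 region (chr6:30053375-30053575) the capitals mark an AP-1 element, TGAGTCA, which reads TGACTCA on the other strand and is found in 3.24% of the 91914 summit windows. The day 9 region (chr6:30081645-30081845) holds none of the motifs searched.

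Nrf1 day 0 region: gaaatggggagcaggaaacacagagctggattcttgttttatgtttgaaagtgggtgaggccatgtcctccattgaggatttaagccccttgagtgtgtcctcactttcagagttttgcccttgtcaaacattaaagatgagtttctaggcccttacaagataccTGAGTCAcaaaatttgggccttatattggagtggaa
Nrf1 day 9 region: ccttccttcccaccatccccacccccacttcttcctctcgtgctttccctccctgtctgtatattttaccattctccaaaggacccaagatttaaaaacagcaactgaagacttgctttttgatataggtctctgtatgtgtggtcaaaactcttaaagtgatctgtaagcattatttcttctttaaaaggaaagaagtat

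Tfam (chr10:71225464-71238280, minus strand), the factor that packages and transcribes mitochondrial DNA, was marked at its start in all 24 libraries (chr10:71237018-71238683) and almost nowhere else. Its covered length was 1.14, 1.03 and 1.10 kb in WT and 0.867, 1.59 and 0.882 kb in DKO at day 0, and 0.889, 0.923 and 1.3 kb in WT and 1.26, 1.2 and 1.24 kb in DKO at day 9. The groups overlapped at both days, although at day 0 every DKO library but the one with wide peaks (1.59 kb) was below WT. At day 6 the WT range was 0.894 to 1.22 kb and the DKO range 0.597 to 0.660 kb, without overlap.

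Among the other promoters in the RefSeq table, that of Ppara held 2 NRF1 cores, that of Tfam 1 ETS element (CCGGAAGT, in 2.88% of promoters), a promoter of Esrrg 1 AP-1 element and that of Pprc1 1 nuclear receptor core AGGTCA (in 14%). The direct repeat DR1, a pair of AGGTCA cores with 1 free base between them and the site type of PPARα with its partner RXR, was found in 0.0335% of promoters and in none of the members' promoters. Such a match describes letters in a window and not the binding of a factor, and the promoter of Ppargc1b was not searched.

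Within the course, the largest step for the 4 genes that gained, as the mean of both genotypes, was from day 3 to day 6. Over both genotypes they rose by 1.01 kb (Ppargc1a), 8.15 kb (Ppargc1b), 1.04 kb (Esrrg) and 2.19 kb (Ppara), each with p = 0.005 in the exact permutation test, but adjusted p = 0.0568, so that none passed the threshold. In DKO alone, the mean of Esrrg rose more from day 6 to day 9 (0.893 to 2.35 kb) than from day 3 to day 6 (0 to 0.893 kb). From day 3 to day 6, 0 of 15204 genes passed the adjusted threshold, and 19.2% were higher at an unadjusted p under 0.05. This step spans the change from induction to maintenance medium, whose part was not tested. From day 0 to day 3, a comparison added after the data had been seen, Pprc1 (-2.09 kb, adjusted p = 0.0379), Esrra (-1.56 kb, adjusted p = 0.0379) and Nrf1 (-3.04 kb, adjusted p = 0.0234) fell in the exact permutation test, 3 of 8 members where 25.2% of all genes fell. Without DKO day 0 replicate 2 the calls of Pprc1 (-1.55 kb, adjusted p = 0.0396) and Nrf1 (-2.30 kb, adjusted p = 0.0247) held and that of Esrra was lost (-0.938 kb, adjusted p = 0.0635, exact permutation test). After scaling to covered length only Nrf1 remained lower (-1.88 kb, exact permutation test, adjusted p = 0.0206), and Pprc1 turned to 0.785 kb higher (adjusted p = 0.369).

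The second question was whether the loss of HMGN1 and HMGN2 changed the mark at these genes. Over the 4 days, none of the 8 members passed the test: the mean difference DKO minus WT ranged from -0.529 kb at Pprc1 to 2.35 kb at Ppargc1b. The nearest to the threshold was Ppargc1b, with an unadjusted p of 0.0172 (exact permutation test of genotype within day, two-sided) and adjusted p = 0.368. Ppara (0.315 kb, p = 0.141), Esrrg (0.148 kb, p = 0.325) and Ppargc1a (0.036 kb, p = 0.837) were further from it in the same exact permutation test. At an adjusted p under 0.05, 0 of 8 members were higher and 0 were lower, against 0.0263% and 0.125% of all genes. At an unadjusted p under 0.05, 1 member was higher and 0 were lower, against 3.95% and 5.91% of all genes. The median difference was 0.092 kb over the members and -0.00708 kb over all genes. Without DKO day 0 replicate 2 none passed either, with Ppargc1b at 2.23 kb (adjusted p = 0.180, exact permutation test), Pprc1 at -0.797 kb and Nrf1 turned from 0.284 to -0.0885 kb.

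This mean over the days joined differences of opposite sign. No member had separate genotypes at day 0, where 18.4% of all genes had every DKO library above every WT library. Without DKO day 0 replicate 2, Tfam was separate at day 0 with DKO below WT, and the genes of this kind numbered 1424 of 15204, against 107 with it. At day 3 DKO was below WT without overlap at Ppargc1a, Pprc1, Ppara and Nrf1, 4 of 8 members and 10.8% of all genes. At day 6 DKO was below WT at Pprc1, Esrra, Nrf1 and Tfam, 4 of 8 members and 59.6% of all genes, a share near that of the members. At day 9 DKO was above WT at Ppargc1b, Esrrg, Ppara and Nrf1, 4 of 8 members and 29.3% of all genes. Each of these has an exact permutation p of 0.1, the smallest possible at 1 day. Summed length over the 8 adipocyte markers moved alike. It was lower in DKO at day 6 (WT 91.7 to 96.9 kb, DKO 59.4 to 86.8 kb) and higher at day 9 (WT 65.5 to 76.0 kb, DKO 98.2 to 104.0 kb), with all 8 promoters marked in every library of both days. That of the 8 stromal markers was also lower in DKO at day 6 (WT 36.6 to 37.7 kb, DKO 11 to 16.6 kb) and overlapped at day 9 (WT 34.5 to 41.3 kb, DKO 34.9 to 40.3 kb), although Pi16 was marked in 3 WT and 0 DKO libraries at day 6 and Dpp4 in 3 and 0 at day 9. The 7 brown or beige markers overlapped at day 6 (WT 4.76 to 6.61 kb, DKO 2.31 to 5.60 kb) and were higher in DKO at day 9 (WT 3.61 to 4.70 kb, DKO 9.59 to 11.4 kb), with 3 to 4 promoters marked in WT and 5 to 6 in DKO. Their part in the members' differences was not tested.

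After scaling to covered length, the day 6 differences of Pprc1, Esrra, Esrrg, Nrf1 and Tfam turned from lower to higher in DKO. Those of Ppargc1a, Ppargc1b and Ppara grew from 0.00367, 0.600 and 0.553 kb. Ppargc1b was 9.86 ± 1.10 kb in WT and 19.6 ± 1.07 kb in DKO (SD, n = 3), Ppara 2.17 ± 0.228 and 5.05 ± 0.583 kb, Ppargc1a 1.80 ± 0.148 and 3.30 ± 0.684 kb, and Pprc1 6.62 ± 0.320 and 7.94 ± 0.894 kb, and in these 4 genes every DKO library was then above every WT library. Esrra (0.0137 kb higher in DKO), Esrrg (0.361 kb), Nrf1 (0.640 kb) and Tfam (0.146 kb) overlapped on this scale at day 6. Of all 15204 genes, 5745 had DKO above WT without overlap on this scale at day 6, a share not far from that of the members. For 2181 genes DKO was below WT. At day 9 Ppargc1b (8.70 ± 0.200 against 13.6 ± 1.67 kb), Esrrg (1.26 ± 0.184 against 1.89 ± 0.417 kb), Ppara (1.94 ± 0.213 against 2.66 ± 0.369 kb) and Nrf1 (2.86 ± 0.231 against 3.38 ± 0.185 kb) were higher in DKO without overlap on both scales. Pprc1 was lower without overlap after scaling (7.30 ± 0.395 against 6.64 ± 0.0447 kb). Of all 15204 genes, 2034 had DKO above WT without overlap after scaling at day 9, and 2054 had DKO below WT. With other peak sets fewer were separate at day 9, Ppargc1b alone among the 20000 strongest peaks and Ppargc1b and Nrf1 with fixed windows around summits. DKO was above WT without overlap at 2358 of 12085 genes with the first set and at 1617 of 15207 with the second. On the scaled lengths no member was separate at day 3. At day 0 only Tfam was, with DKO below WT (WT 0.979 to 1.28 kb, DKO 0.790 to 0.944 kb). At that day 1610 of 15204 genes had DKO below WT without overlap on this scale and 1662 above. Over the 4 days on the scaled lengths, Ppargc1b passed the threshold as higher in DKO (3.96 kb, adjusted p = 0.00826, exact permutation test), on a scale on which 1397 genes were called higher and 865 lower, against 4 and 19 without scaling. Scaling divides by the whole covered length of a library, which itself was lower in DKO at day 6, and which of the 2 scales is nearer to the amount of the mark was not tested.

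**Figure D3:**
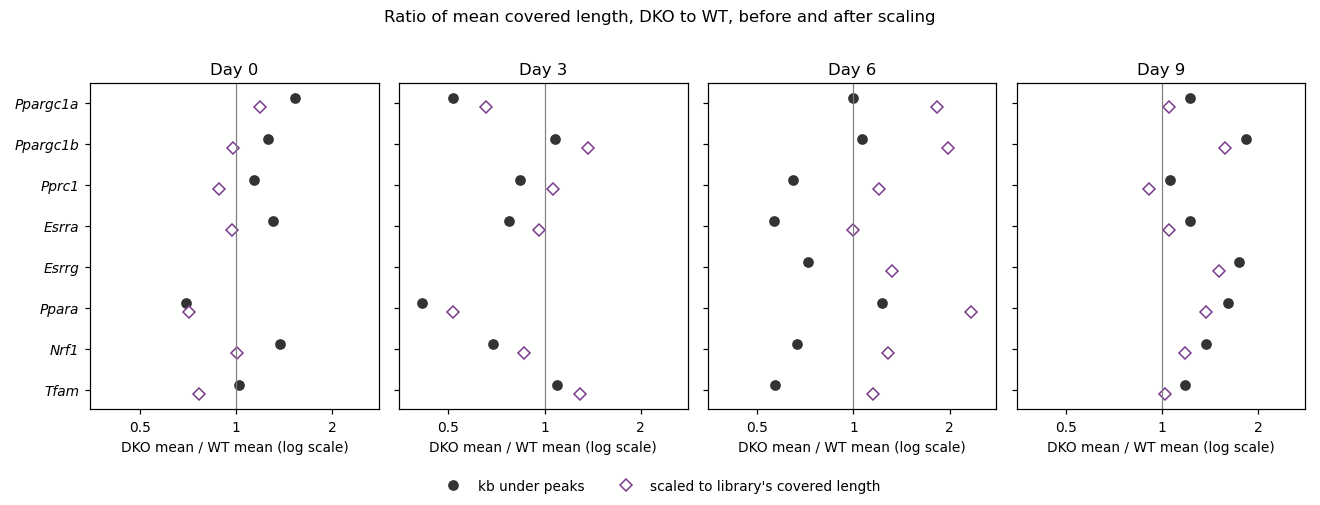
Ratio of the mean covered length in DKO to that in WT (log axis) for each member at each day, as kb under peaks (filled) and after scaling to the covered length of each library (open). At day 6 most filled symbols lie at or below 1 and most open symbols above it, while at day 9 Ppargc1b, Esrrg, Ppara and Nrf1 lie above 1 on both scales; Esrrg has no ratio at days 0 and 3, where its span was unmarked in DKO.

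The strength of the promoter peak was read as its rank, the percentage of the peaks of the same library with a lower −log10 q, a measure that depends on how many peaks the list holds (47448 to 115923). Esrrg has no such peak. The strongest peak within 1 kb of a start ranked high at all days in Pprc1 (group means 95.2 to 98.2%), Nrf1 (90.6 to 97.4%), Esrra (85.9 to 96.2%) and Tfam (81.0 to 93.8%). It climbed at Ppara, from 66.4 ± 9.20% at day 0 to 90.4 ± 2.93% at day 9 in WT and from 26.4 ± 23.6% (2 of 3 libraries with a peak) to 93.2 ± 0.265% in DKO (SD, n = 3). At Ppargc1a it went from 62.8 ± 13.9 to 83.1 ± 5.35% in WT and from 58.4 ± 23 to 89.4 ± 4.77% in DKO. Between the genotypes over the 4 days, 0 of 7 members tested were higher and 0 lower, against 0.133% and 1.69% of the 13516 genes with such a peak in at least 3 libraries. The differences were -12.4 percentage points at Ppara (exact permutation p = 0.0790, adjusted p = 0.310), 2.81 at Ppargc1b (p = 0.0528, adjusted p = 0.260) and -3.13 at Ppargc1a (p = 0.554, adjusted p = 0.774). With promoters outside the 20000 strongest peaks of a library set to 0, the values turned to 1.09 at Ppara and 15.9 at Ppargc1a, and without DKO day 0 replicate 2 they were -9.07 and -5.55. At Ppargc1b the DKO libraries ranked above all WT libraries at day 6 (94.1 to 95.0% in WT, 97.9 to 98.7% in DKO) and at day 9 (92.5 to 96.0% and 96.6 to 97.5%). Nrf1 was also separate at day 9, with DKO above WT. In the other direction, every DKO library ranked below every WT library at day 0 at Nrf1, Tfam and Ppara, and at day 3 at Tfam. The share of all genes with separate ranks at a day was not counted.

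**Figure D4:**
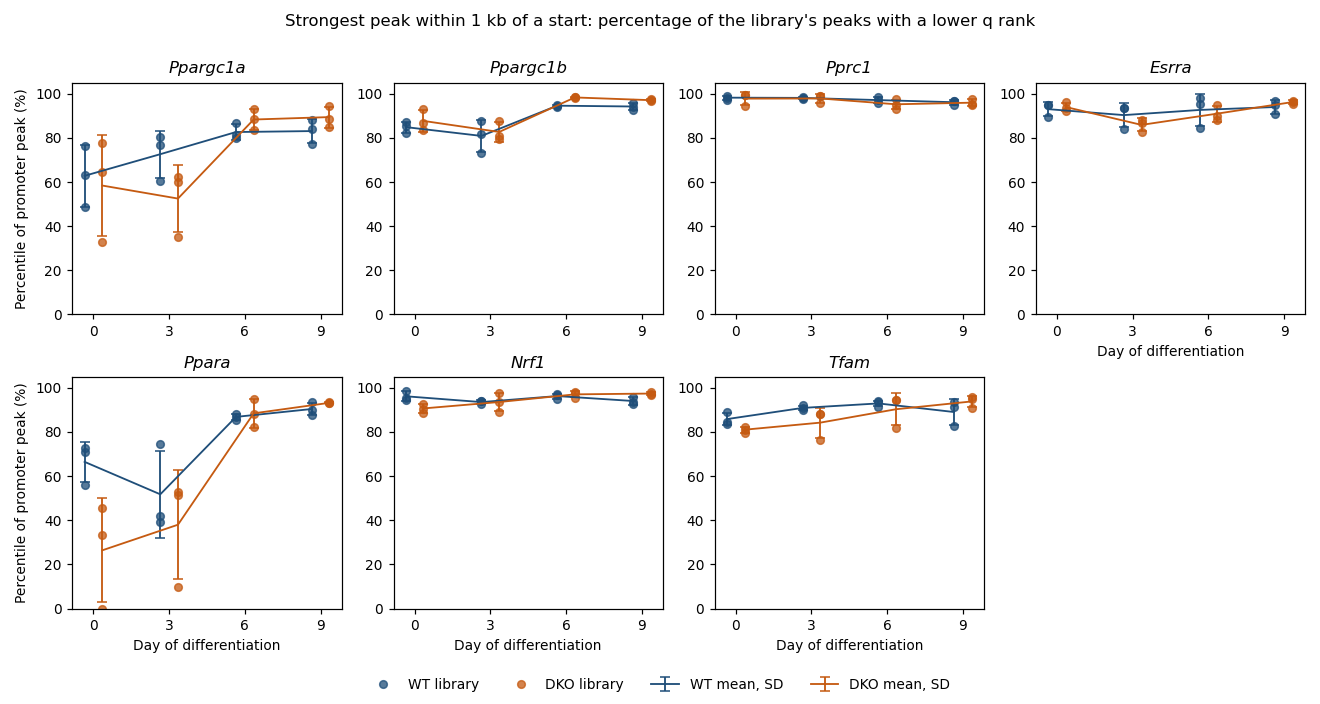
Rank of the strongest peak within 1 kb of an annotated start, as the percentage of the library's peaks with a lower −log10 q, for the 7 members with such a peak, against the day of differentiation. Points are libraries, lines and bars are the mean and SD of 3 libraries, and a library without such a peak is placed at 0; Ppargc1a and Ppara climb to group means between 82.6 and 93.2% at days 6 and 9, and the other 5 stay at or above 73.3% in every library.

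Single regions that set the genotypes fully apart were few. At day 6, 2 of the 59 merged regions called at the members were held by 3 of 3 WT and 0 of 3 DKO libraries, the intronic region of Esrra given above and one of Ppargc1b 39.8 kb from its start, where 8.82% of all regions called at that day were of this kind. At day 9, 2 of 81 were held by 3 of 3 DKO and 0 of 3 WT libraries, 1 in Ppargc1b at 77.4 kb and 1 in Esrrg at 469.4 kb from the start, against 2.20% of all regions. Over the 4 days 0 of 71175 regions passed the exact conditional test after adjustment, and 324 were called more often in DKO and 3430 in WT at an unadjusted p under 0.05. Between the days the count was higher: 8 of 86 member regions were held by 6 of 6 libraries of day 9 and by 0 of 6 of day 0, against 2.95% of all regions, and 0 in the reverse, against 1.50%. These 8 lay in Ppargc1b, Esrrg and Nrf1 alone, more than 1 in each, and do not describe the other members.

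Partners and targets of the members were read from lists of other genes. Of 24 known target genes of PPARα and ERR, 21 could be tested, and 14 were higher and 1 lower at day 9 than at day 0 (median change 1.29 kb, against 0.0386 kb over all genes), where 16.4% of all genes were higher and 14.8% lower. Those that gained included Cs, the citrate synthase (5.30 kb), and Angptl4, a secreted inhibitor of lipoprotein lipase (4.28 kb), each with adjusted p = 0.0203 in the exact permutation test. Cpt1a, which admits long-chain fatty acids to mitochondria, was lower (-2.09 kb, exact permutation test, adjusted p = 0.0481). Of 29 coregulators and partners, 28 were tested, 8 were higher and 2 lower (median 0.112 kb). These included Lpin1, a lipid phosphatase and coactivator (7.06 kb, adjusted p = 0.0203), and the acetyltransferases Kat2b (5.23 kb, adjusted p = 0.0481) and Ncoa1 (5.09 kb, adjusted p = 0.0203), while the CREB coactivator Crtc3 (-5.52 kb) fell (adjusted p = 0.0352, exact permutation test). All 12 genes of mitochondrial DNA maintenance and transcription were tested, and 3 were higher and 0 lower (median 0.106 kb), shares that are, like those of the coregulators, not far from the ones over all genes. These were the mitochondrial polymerase subunits Polg2 (1.44 kb) and Polg (0.629 kb) and the transcription factor Tfb2m (1.22 kb). Between the genotypes over the 4 days, 0 genes of these lists passed the test, with 3 of the targets higher at an unadjusted p under 0.05, where 3.95% of all genes were, and 0 genes of the other two lists.

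The members with a gain followed each other across the libraries. Over the 24 libraries, which share their covered length and the course of days, the covered length of Ppargc1a correlated with that of Ppargc1b (Pearson r = 0.867), Ppara (0.850) and Esrrg (0.841), and far less with Esrra (0.385), Pprc1 (0.147), Tfam (0.0791) and Nrf1 (0.0284). The genes most like Ppargc1a among 10723 with a mean of at least 1 kb were Acaa2 (0.948), Fbxw2 (0.930) and Grsf1 (0.929), and those most like Ppara were Zkscan3 (0.971), Cdo1 (0.968) and Scp2 (0.967). These values are descriptions over libraries of 2 genotypes and 4 days and carry no test.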

How the data were processed

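H3K27ac peak lists of 24 libraries were analysed, and the 16 input samples were not used here. Per the labels and the study's methods, the authors trimmed reads with cutadapt 1.18, aligned them to mm10 with BWA (version as printed in the submitters' processing notes, 07.17) and called narrow peaks in each library on its own with MACS2 2.1.1.20160309. The deposited values are the fold enrichment at the summit, a ratio to the local background, the −log10 of its p-value, that of its q-value, and an integer score derived from the latter. The number of mapped reads and the control of each list are not given in the sources used here.

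From these, covered length (kb under peaks) was added up over each GENCODE protein-coding gene with 5 kb upstream of it, and promoter peaks (within 1 kb of a start) were ranked by −log10 q within the library. Wide peaks enter the first measure directly, and the second depends on the number of peaks in the list. Fold and p together gave whole reads at the summit for 98.372 to 100.0% of peaks (tolerance 0.01 in −log10 p). Peaks overlapping by at least 1 bp were joined into regions. No count model was used, since the lists hold no counts.

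Exact permutation tests over libraries, two-sided, exchanged the genotype inside each day (160000 relabellings, with 1.25e-05 as the smallest p) or day within genotype (400, smallest p 0.005), with Benjamini-Hochberg adjustment over all 15204 genes at 0.05. At 1 day, 3 against 3 libraries cannot go below 0.1. Groups and replicate numbers came from GEO's labels. The replicate numbers did not pair the samples. The genes named are the 8 members, up to 3 genes per list and direction with the largest change past the threshold (some are not reported here), and the 3 genes most correlated with Ppargc1a and with Ppara. The members, lists and alternatives were chosen with earlier results of these data known, and the steps between neighbouring days, the change tests, the direct repeat motif and the motif search around summits were added after these data were seen. Motif letters were searched in 250 bases before RefSeq starts and in 201 bases around summits. The tests were checked on simulated data. Python 3.11.15, numpy 2.4.6, pandas 2.3.3, scipy 1.17.1 and matplotlib 3.10.9 were used.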

Additional observations from a re-analysis of the deposited data

Results flagged for a closer look

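The difference DKO minus WT at day 9 was compared with that at each earlier day by the exact permutation test of genotype within both days (two-sided, smallest p 0.005), and the p-values below are unadjusted. After adjustment over all 15204 genes in this permutation test, 0 genes passed relative to day 0 and 0 relative to day 3, while relative to day 6 4645 genes passed, among them Esrra (adjusted p = 0.0491) and Nrf1 (adjusted p = 0.0306). Relative to day 0 the difference was larger at Ppara, by 1.39 kb (exact permutation p = 0.035, unadjusted), and 0.763% of all genes were higher in this way at an unadjusted p under 0.05. Without DKO day 0 replicate 2 the Ppara value was 1.23 kb (exact permutation p = 0.065). After scaling to covered length it was 0.849 kb (p = 0.060) in the same exact permutation test and no longer passed. Ppargc1b did on that scale (5.01 kb, exact permutation p = 0.040, adjusted p = 0.490), where 4.87% of all genes were higher.

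Relative to day 3 the difference was larger by 1.03 kb at Ppargc1a (p = 0.015), 1.58 kb at Esrra (p = 0.030), 1.66 kb at Ppara (p = 0.005) and 1.77 kb at Nrf1 (p = 0.005), in the same exact permutation test, and 20.1% of all genes were higher. After scaling to covered length, the exact permutation test gave values of 1.12 kb at Ppara (p = 0.015) and 0.859 kb at Nrf1 (p = 0.040), with 4.78% of all genes higher, while Ppargc1a (0.629 kb, p = 0.130) and Esrra (0.342 kb, p = 0.480) no longer passed.

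Relative to day 6 it was larger by 3.08 kb at Pprc1 (p = 0.020), 2.89 kb at Esrra (p = 0.015), 1.34 kb at Esrrg (p = 0.025), 1.98 kb at Nrf1 (p = 0.005) and 0.665 kb at Tfam (p = 0.020), in the same exact permutation test, 5 of the 8 members where 49.6% of all genes were higher, a share near that of the members. After scaling, 5 of these 5 lost the call as higher, and Pprc1 was -1.97 kb (exact permutation p = 0.005). The 3 comparisons share the day 9 libraries and are not independent of each other.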

How the results depend on the processing

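Of 515 values computed under the alternatives, the numbers of genes or regions called moved with the scale, the choice of peaks and single libraries. In all settings the members had 0 calls between the genotypes over the 4 days, except after scaling to covered length, where the number was 1 (Ppargc1b). Scaling called 2262 genes between the genotypes, against 23 without it, and higher genes made up 61.8% of the calls against 17.4%. The scaled differences DKO minus WT over the 4 days were 0.0583 kb at Pprc1 and 0.0484 kb at Tfam. At day 3 that of Pprc1 was 0.472 kb, and at day 6 they were 1.31 kb at Pprc1, 0.0137 kb at Esrra, 0.64 kb at Nrf1 and 0.146 kb at Tfam. The scaled day 9 minus day 0 values were -0.00217 kb at Esrra and -0.0168 kb at Tfam. For the step from day 0 to day 3, scaling left 1 member called and gave 0.897 kb at Ppargc1b, 0.785 kb at Pprc1 and 0.153 kb at Tfam. The scaled change from day 0 to day 9, DKO minus WT, was -0.0323 kb at Ppargc1a, 0.237 kb at Pprc1, 0.298 kb at Esrra and 0.467 kb at Nrf1. All of these kb values had the opposite sign without scaling, and the cause was not tested beyond the construction of the scale.

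With the 20000 strongest peaks, 13 genes differed between the genotypes and 1292 between day 9 and day 0, 2 of them members. The genotype difference was 0.0232 kb at Tfam, and the day 9 minus day 0 values were 0.216 kb at Pprc1, 0.143 kb at Nrf1 and -0.0207 kb at Tfam. This choice left 4 cases of a member with separate genotypes at a day, against 12, 127 genes with a promoter rank that differed, against 247, and 0 member regions held by every library of one genotype and none of the other, against 4. Promoter ranks turned to 15.9 percentage points at Ppargc1a and 1.09 at Ppara. With windows of 250 bp either side of the summit, 160 genes differed between genotypes and 2269 between day 9 and day 0, against 4741. The genotype differences were then -0.0922 kb at Ppara and -0.234 kb at Nrf1, that of Ppara at day 9 was -0.167 kb, Pprc1 was 0.312 kb at day 9 minus day 0, and 7 separate cases and 2 member regions were left. With peaks of −log10 q of at least 5, 10 genes differed, Ppargc1a was -0.00633 kb between genotypes, Esrra -0.003 kb and Tfam -0.0865 kb between day 9 and day 0, and 2 member regions were left. The gene body alone gave 37 genes and 50 kb upstream gave 36, with -0.129 kb at Ppargc1a and -0.172 kb at Ppara. The cause of these moves was not tested.

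When libraries were left out (each replicate number in turn, DKO day 0 replicate 2 or WT day 3 replicate 3), the number of genes that differed between genotypes ranged from 0 to 207, between day 9 and day 0 from 0 to 6903 (members 0 to 4) and in promoter rank from 0 to 259. The value of 207 is without DKO day 0 replicate 2. Each 0 comes from leaving out a replicate number. Between 2 days the smallest p of the exact permutation test is then 0.0556, so that no gene could pass. Nothing follows about stability from those. Over the 4 days it is 0.00154, which passes the adjustment only where many genes reach it together. In these fits with fewer libraries too few did. Separate cases ranged from 13 to 19 and member regions from 4 to 14. Leaving out a replicate number sets 2 libraries against 2, and separation was then more frequent over all genes at every day. At day 0, for example, DKO was above WT at 7151 of 15204 genes without replicate 1, against 2798 with all libraries. The genotype difference ranged from -0.676 to 0.21 kb at Esrra, -0.137 to 0.502 kb at Nrf1, -0.0739 to 0.134 kb at Ppargc1a and -0.143 to 0.0569 kb at Tfam. Day 9 minus day 0 ranged from -0.254 to 0.693 kb at Esrra, -0.694 to 0.312 kb at Pprc1 and -0.0932 to 0.173 kb at Tfam, and promoter rank from -2.08 to 0.058 percentage points at Esrra and -1.12 to 0.448 at Nrf1. Without DKO day 0 replicate 2 the change from day 0 to day 9, DKO minus WT, was 0.959 kb at Esrra, 1.11 kb at Nrf1 and 0.496 kb at Pprc1, each of opposite sign with it.

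Libraries with the same replicate number did not deviate together. Of 12 pairs of a WT and a DKO library, 4 had a correlation of deviations over 0.1 (-0.837 to 0.898), and 3 libraries correlated best with their own number. With the replicate number as a block, the pairing left 0 genes between genotypes, 0 genes and 0 members between day 9 and day 0, and 0 genes in promoter rank. The smallest p of that exact permutation test was 0.000488 between genotypes and 0.0312 between days. Such a p passes the adjustment over all genes only where many genes reach it together, and too few did.

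The remaining 68 counts over genes or regions stayed within 1.5 times the reported one. Of the values of single members, 315 kept sign and side of the threshold, 46 changed sign, 42 lost the threshold and 5 passed it. Depth is unknown, the folds of weak peaks rest on few reads, and a region without a called peak may hold mark below the caller's threshold.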
